A study of Ascaris suum with 12 samples.

Results

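Spermatids and the seminal vesicle are the last male regions sampled along the germline of Ascaris suum, the large roundworm of the pig intestine, and their transcripts are compared here with spermatids set over the seminal vesicle. Both regions came from adult males of a North American wildtype strain, without any treatment; worms were taken from freshly obtained pig intestines, dissected, and the germline regions were frozen and ground in liquid nitrogen. RNA was extracted with Trizol, depleted of ribosomal RNA with a kit designed for human, mouse and rat, and made into libraries with the TotalScript method. The spermatid group is 1 library and the seminal vesicle group is 1 library, out of 12 in the series. Mitotic, spermatogenesis and post-meiotic male regions and the 5 female regions, also 1 library each, serve as context. The labels do not say how many worms a library holds, or how spermatids were freed from the tissue around them. With 1 library a group there is no replicate error and no test, so every difference below is a difference between these libraries.

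All 61820 transcripts of the table, from 18025 gene models, were members of the comparison. Of these, 44575 transcripts of 12603 genes were above 0 in both libraries, and those carry the differences. The 15760 transcripts with a seminal vesicle value of exactly 0 are described apart. Values are in RPKM, mapped reads scaled to transcript length and library size, and a difference is log2(spermatids + 1) minus log2(seminal vesicle + 1), so a positive one means higher in spermatids; adding 1 understates the change of low transcripts. The terms higher and lower are used of a transcript whose RPKM + 1 differed at least 4-fold between the libraries, with at least 10 RPKM in one of them.

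Nematode sperm have no flagellum: they crawl with a cytoskeleton of major sperm protein in place of actin. Spermatids leave most of the cytoplasm, with ribosomes, actin and tubulin, in a residual body, and transcription has largely ended by then, so their RNA is thought to be mostly inherited from earlier stages. The seminal vesicle is the somatic chamber of the male duct that stores these cells, and a dissected piece of it holds its wall as well as its contents. In bulk RNA of this kind, fewer cells of a type and less RNA per cell cannot be told apart.

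Sperm markers were present in both libraries, far below their level in earlier regions. The 131 transcripts of the major sperm protein list summed to 7081 RPKM in spermatids and 900.1 RPKM in the seminal vesicle; the mitotic region had 33675 RPKM, spermatogenesis 88587 RPKM, the post-meiotic region 62808 RPKM, and the female libraries 196 to 485 RPKM. Spermatids thus held more of this RNA than the seminal vesicle, and both held less of it than any earlier male region.

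The seminal vesicle library stood apart from the other 9 in ways that touch every count below. It listed 25.5% of transcripts at 0, against 8.10% to 15.7% elsewhere, and its 100 highest transcripts held 66.0% of its summed RPKM, against 21.7% to 57.8%. Spermatids listed 13.0% at 0, and their 100 highest transcripts held 46.8%. Median RPKM over all transcripts was 1.5 in spermatids and 0.4 in the seminal vesicle. RPKM times length in kilobases, summed over all transcripts, came to 3780648 in spermatids and 4238905 in the seminal vesicle, which exceeds what counting each mapped read once would give, so isoforms of a gene share reads and transcripts are not independent. The sources used here state no read depth.

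Differences ran mostly towards spermatids. Among the 44575 transcripts, 1307 (2.93%), from 493 genes, were higher in spermatids and 219 (0.491%), from 96 genes, were lower. The median difference was 0.28 over all of them and -0.23 over the 8606 with 10 RPKM or more in either library. Abundant transcripts thus leaned slightly towards the seminal vesicle while a long tail leaned to spermatids. Only those 8606 could be called, and 15.2% of them were higher and 2.54% lower. List shares below are over transcripts above 0 in both, so they also depend on how many members reach 10 RPKM. Levels in both libraries correlated over the 37983 transcripts at 1 RPKM or more in either (Pearson r = 0.76 on the log2 scale, a description across transcripts that share genes and libraries). Just inside the threshold, a hypothetical protein, AgR007_g085_t02, had 18.6 RPKM in spermatids and 3.9 RPKM in the seminal vesicle; just outside it, the RNA polymerase II subunit RPB2 transcript AgR043_g038_t03 had 13.7 RPKM in spermatids and 2.7 RPKM in the seminal vesicle. On the lower side, the hypothetical transcript AgR024_g028_t03 with 17.3 RPKM in spermatids and 72.2 RPKM in the seminal vesicle was called, and the FACT complex subunit AgE19_g004_t08 with 24.6 RPKM in spermatids and 101 RPKM in the seminal vesicle was not.

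**Figure D1:**
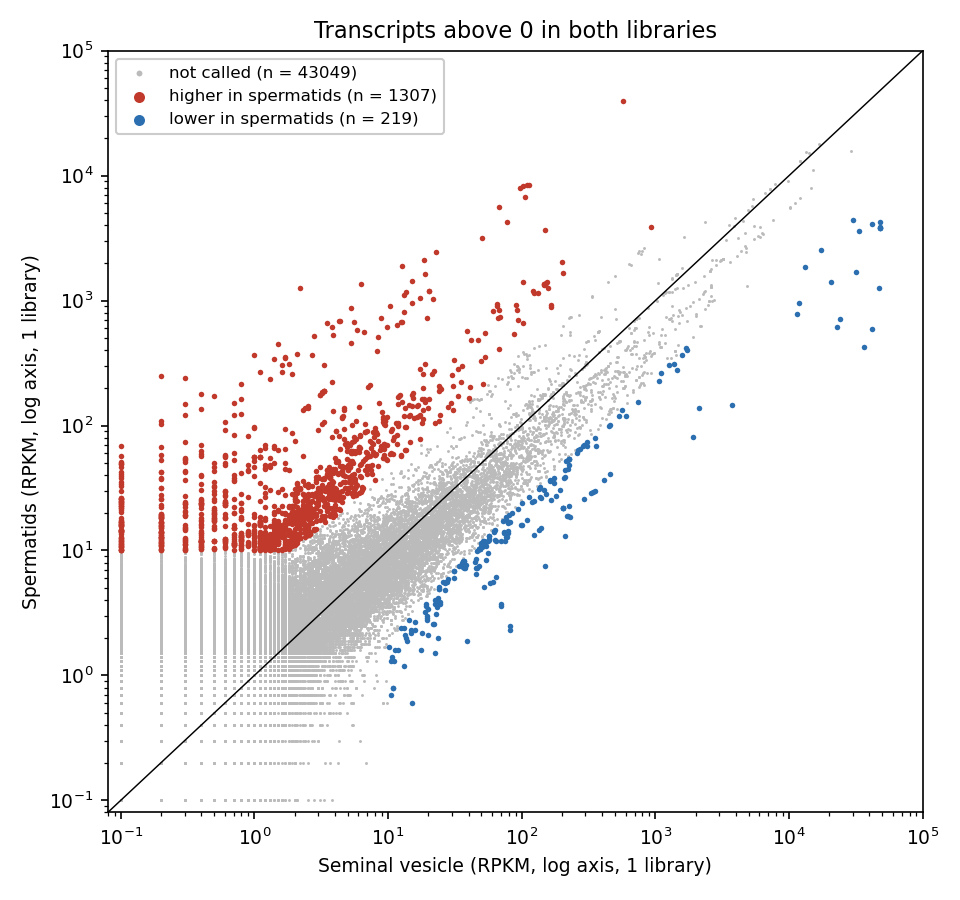
Each point is 1 of 44575 transcripts above 0 in both libraries, with RPKM in spermatids on the vertical log axis and RPKM in the seminal vesicle on the horizontal log axis; the line marks equal values. The 1307 transcripts called higher reach 39947 RPKM in spermatids, and the 219 called lower include a separate group above 10000 RPKM in the seminal vesicle.

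Many of the largest differences belonged to transcripts that were low in all other libraries. Of the transcripts called higher, 151 from 71 genes were also at least 4-fold over each of the other 9 libraries on the same scale, female regions included. They had a median of 51.1 RPKM in spermatids (range 10.2 to 1356) and 0.5 RPKM in the seminal vesicle (range 0.1 to 53.2), and 89 of them were under 1 RPKM there. Cuticle genes led this set, with 48 transcripts from 19 genes, beside 6 genes of the C-type lectin list, 9 of the secreted antigen list and 2 globin genes. None of its transcripts was on the major sperm protein or sperm motility lists, and none was eliminated from somatic cells. This set was picked with the spermatid values in view, so its size is a description only.

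OV-17 antigen, a secreted antigen first described in the filarial parasite Onchocerca volvulus, had the largest difference of any transcript above 0 in both libraries. Its transcript AgR006_g149_t01 (AgR006:2431207-2434244, plus strand, 3 exons) was listed at 1255 RPKM in spermatids and 2.2 RPKM in the seminal vesicle, a difference of 8.62. Both neighbouring copies on the scaffold behaved alike: AgR006_g147_t01 had 240.0 RPKM in spermatids and 0.3 in the seminal vesicle, and AgR006_g148_t01 had 149.5 RPKM in spermatids and 0.3 in the seminal vesicle. No other library exceeded 5.2 RPKM for these 3 genes.

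Collagens form the nematode cuticle, which is secreted by the hypodermis and other epithelia, and 22 genes of the collagen and cuticle list were called higher (55 of 260 transcripts above 0 in both, 21.2%, against 2.93% of all), with 1 gene lower (2 transcripts). The putative cuticular collagen AgR049_g018_t01 (AgR049:235348-248887, minus strand) had 1356 RPKM in spermatids and 6.3 RPKM in the seminal vesicle (difference 7.54). Collagen 34, AgR031_g062_t02, had 1193 RPKM in spermatids and 20.2 RPKM in the seminal vesicle (difference 5.82). Collagen 19, AgR031_g093_t01, had 659 RPKM in spermatids and 3.5 RPKM in the seminal vesicle, and a second collagen 19 gene, AgB05_g101_t01, had 523.5 RPKM in spermatids and 2.8 RPKM in the seminal vesicle. Epicuticlin, a cuticle protein, had 451.5 RPKM in spermatids and 1.5 RPKM in the seminal vesicle (AgB12_g029_t03, difference 7.50). Collagen dpy-5, named for a gene of Caenorhabditis elegans in which mutants have a short body, had 369 RPKM in spermatids and 2.7 RPKM in the seminal vesicle (AgR005_g395_t01). Collagen 14 was the mildest of those described, at 139.5 RPKM in spermatids and 28.2 RPKM in the seminal vesicle (AgR028_g016_t06, difference 2.27).

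The summed RPKM and the median difference of the cuticle list did not follow its calls. Its 529 transcripts summed to 71366 RPKM in spermatids and 91785 RPKM in the seminal vesicle. The sums were 7892 in the post-meiotic region and 1306 to 2700 in the 2 earlier male and 5 female regions. Most of the spermatid and seminal vesicle sums came from 11 collagen transcripts of 2 overlapping genes. The highest, AgB01_g561_t01, had 7955 RPKM in spermatids and 14536 RPKM in the seminal vesicle. These sums thus mostly describe that locus and not the whole list, and the other members were not summed apart. The median difference of the list was 0.12 beside 0.28 for all transcripts. Of its members, 175 were at 0 in spermatids and 242 at 0 in the seminal vesicle. The list also marks hypodermis and other cuticle-forming epithelia that a dissected region could hold, and the part of such cells in either library was not tested.

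Beside the cuticle genes, and the 55 transcripts of 28 genes without a descriptive annotation, the spermatid-restricted set held enzymes, lectins, globins and antigens, among others. Asparagine synthetase, which makes asparagine from aspartate, had 369 RPKM in spermatids and 1.0 RPKM in the seminal vesicle (AgB13X_g025_t01, difference 7.53). A run of 3 adjoining C-type lectin 160 genes, coding for proteins with a carbohydrate-binding fold, lay together: AgR005_g097_t01 had 344 RPKM in spermatids and 1.4 RPKM in the seminal vesicle, and AgR005_g096_t02 had 26.2 RPKM in spermatids and 0.1 RPKM in the seminal vesicle. Another lectin 160 gene, AgR207X_g001_t01, had 235 RPKM in spermatids and 1.3 RPKM in the seminal vesicle. Myoglobin, AgR026_g093_t02, had 546 RPKM in spermatids and 53.2 RPKM in the seminal vesicle, and no other library passed 4.5 RPKM. The extracellular globin gene had 4 of 4 transcripts higher, with a summed 129 RPKM in spermatids and 15.2 RPKM in the seminal vesicle. ABA-1, the polyprotein allergen of Ascaris body fluid that binds fatty acids, had 42.5 RPKM in spermatids and 0.2 RPKM in the seminal vesicle (AgB02_g451_t05, difference 5.18).

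A second group consisted of sperm protein genes whose RNA was most abundant earlier. Of the 110 transcripts of the major sperm protein list above 0 in both libraries, 45 from 16 genes were higher (40.9%, against 2.93% of all) and 0 were lower, with a median difference of 1.67 beside 0.28. Major sperm protein beta, AgE02_g017_t02, had 1657 RPKM in spermatids and 205 RPKM in the seminal vesicle (difference 3.01), against 9162 RPKM in the mitotic region, 19600 RPKM in spermatogenesis and 14476 RPKM post-meiotically. The same protein's gene AgE02_g037_t01 had 1268 RPKM in spermatids and 158 RPKM in the seminal vesicle. Major sperm protein alpha, AgB02_g504_t01, had 1143 RPKM in spermatids and 132 RPKM in the seminal vesicle (difference 3.11). The MSP-domain protein 4 transcript AgB06_g087_t01 had 83.1 RPKM in spermatids and 6.2 RPKM in the seminal vesicle, the largest difference on the list at 3.55.

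Sperm motility genes followed the same pattern, with 28 of 76 transcripts from 17 genes higher (36.8%) and 0 lower, and a median difference of 1.71. MFP2, which speeds assembly of major sperm protein filaments in Ascaris sperm extracts, had 161.8 RPKM in spermatids and 20.4 RPKM in the seminal vesicle (AgR008_g015_t01). MFP1-beta, of the family that slows that assembly, had 61.0 RPKM in spermatids and 6.8 RPKM in the seminal vesicle (AgR003_g210_t01). The sperm-specific protein ZC168.6, AgR086_g007_t01, had 537 RPKM in spermatids and 87.5 RPKM in the seminal vesicle, and closed a run of 5 neighbouring genes called higher, the longest run found, in which the others held MSP-domain protein 1 and ZC168.6 transcripts. The 88 transcripts of the motility list summed to 2780 RPKM in spermatids and 428 RPKM in the seminal vesicle, against 49262 in spermatogenesis.

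The excess of sperm RNA in spermatids was close to that of spermatogenesis transcripts in general. For the 62 major sperm protein transcripts with 100 RPKM or more in spermatogenesis, spermatids held a median of 7.53% of the spermatogenesis value and the seminal vesicle 0.879%, and the ratio of spermatids to seminal vesicle had a median of 7.53 (range 1.40 to 13.5). Over all 1912 transcripts with 100 RPKM or more in spermatogenesis that ratio had a median of 7.27. Among these, 31.5% were called higher, compared with 72.6% of the major sperm protein transcripts and 75.7% of the 37 motility transcripts. Of all 1307 transcripts called higher, 589 from 235 genes were at least 4-fold below their spermatogenesis value in spermatids.

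**Figure D2:**
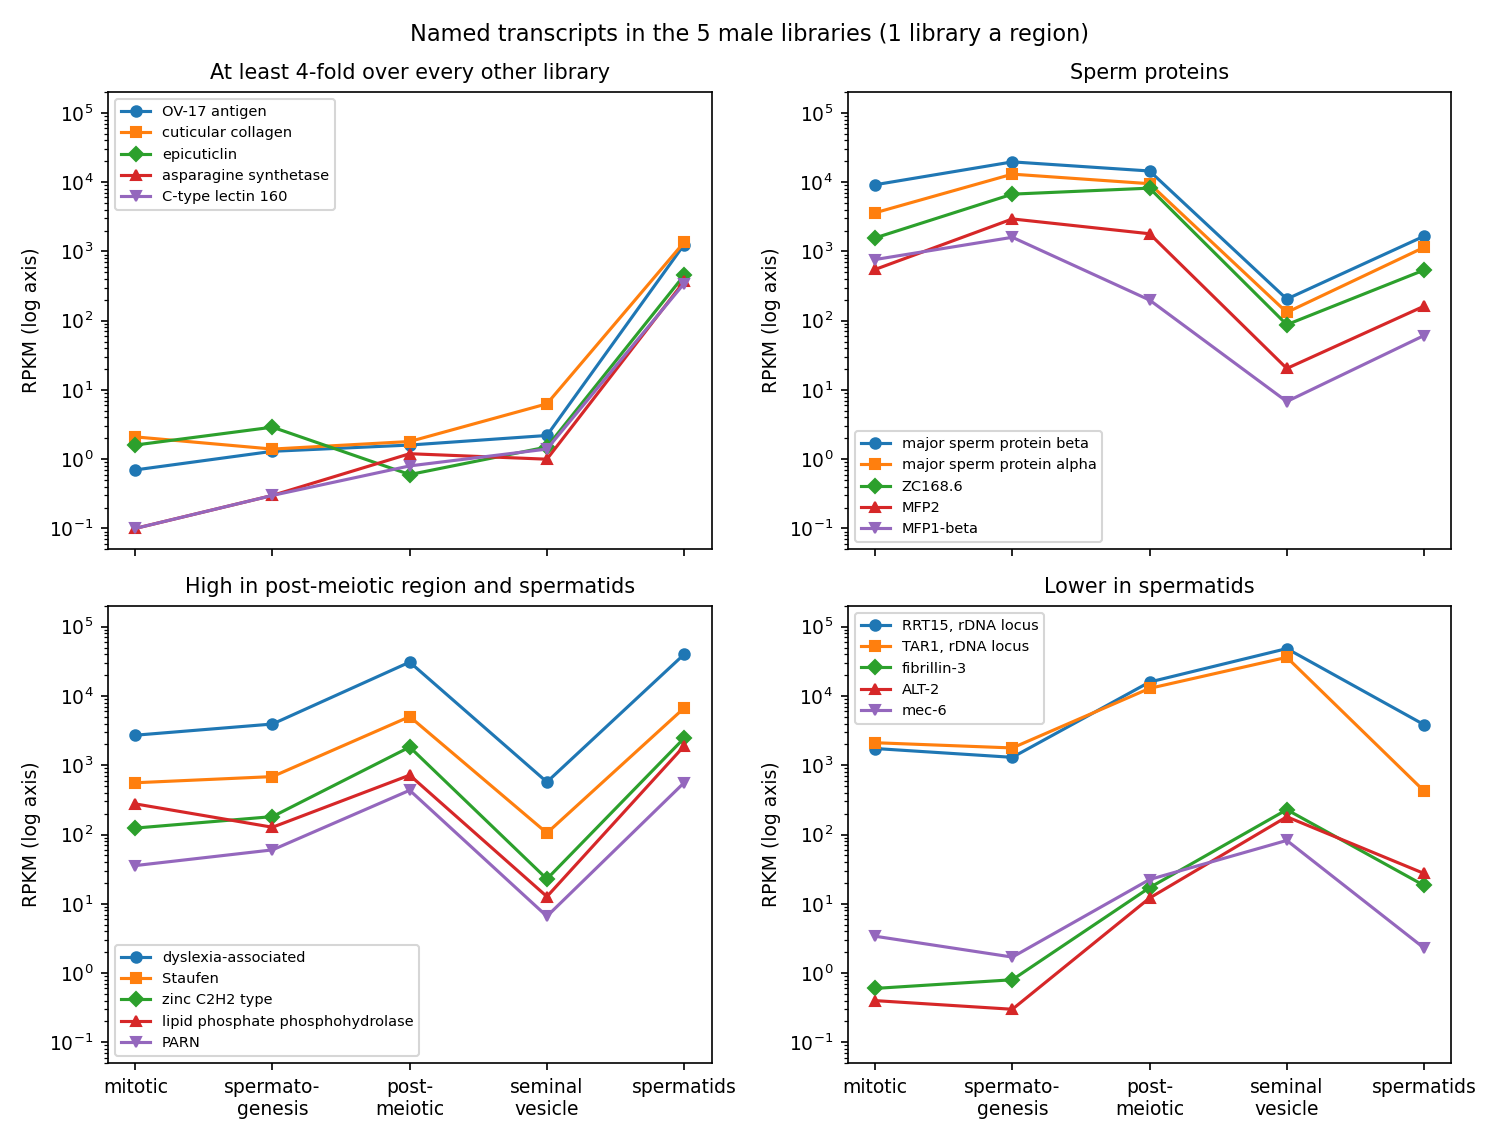
RPKM on a log axis in the 5 male libraries for 5 named transcripts of each of 4 patterns; each point is 1 library. OV-17 antigen reaches 1255 RPKM in spermatids from 2.2 RPKM or less elsewhere in males, major sperm protein beta stands at 1657 RPKM in spermatids and 205 RPKM in the seminal vesicle, the dyslexia-associated transcript stands at 39947 RPKM in spermatids and 573 RPKM in the seminal vesicle, and fibrillin-3 at 18.4 RPKM in spermatids and 228 RPKM in the seminal vesicle.

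Another group stood at a similar level post-meiotically and in spermatids, and was lower in the seminal vesicle. Among transcripts called higher with 100 RPKM or more in spermatids, 38 from 17 genes stood at 1.2 to 1.5 times their post-meiotic value, and for these spermatids exceeded the seminal vesicle by a median ratio of 58.1 (range 6.56 to 107.8). That median hides a gap: 21 transcripts from 11 genes had ratios of 54.1 or more, and the other 17 had ratios of 24.6 or less. Among the lower ratios were 8 HUWE1 transcripts and 4 Staufen isoforms whose mitotic value exceeded the post-meiotic one; the HUWE1 transcripts peaked in the mitotic region, at 729 to 1171 RPKM. The genes described next have transcripts among the higher ratios. The highest transcript of the spermatid library belonged here: AgB01_g790_t02, annotated as dyslexia-associated protein (AgB01:12579836-12619526, plus strand, 21 exons, 18502 nt), had 39947 RPKM in spermatids and 573 RPKM in the seminal vesicle (difference 6.12), against 30822 RPKM post-meiotically and 3936 RPKM in spermatogenesis. Its value times its length (RPKM times kilobases) comes to 739092 in spermatids and 10598 in the seminal vesicle. The spermatid figure exceeds the 533018 to which all transcripts flagged as best expressed summed in that library. The listed level of this transcript is thus not reliable. Isoforms AgB01_g790_t01 and AgB01_g790_t03, listed with the same ends and length, had 455.5 and 4275 RPKM in spermatids and 5.3 and 78.0 RPKM in the seminal vesicle, so how the reads of this locus were divided is uncertain while its direction is shared.

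Staufen, a double-stranded RNA-binding protein that localises mRNA in Drosophila, had 6705 RPKM in spermatids and 105 RPKM in the seminal vesicle (AgR002_g166_t07, difference 5.98). A zinc finger C2H2 transcript on an eliminated scaffold, AgE05_g022_t01, had 2458 RPKM in spermatids and 22.8 RPKM in the seminal vesicle (difference 6.69). A facilitated glucose transporter, AgB04_g359_t03, had 1633 RPKM in spermatids and 18.8 RPKM in the seminal vesicle. PARN, the ribonuclease that removes poly(A) tails, had 560.3 RPKM in spermatids and 6.6 RPKM in the seminal vesicle (AgB02_g042_t04). Decaprenyl-diphosphate synthase, which builds the side chain of ubiquinone, had 1181 RPKM in spermatids and 13.7 RPKM in the seminal vesicle (AgR029_g120_t02). Lipid phosphate phosphohydrolase, an enzyme that removes phosphate from lipids, was likewise low in the seminal vesicle but stood further above its post-meiotic value of 719.5 RPKM, with 1892 RPKM in spermatids and 12.7 RPKM in the seminal vesicle (AgR002_g280_t04, difference 7.11).

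Many of the higher transcripts had their male peak in the mitotic region or in spermatogenesis, and genes of the ubiquitin system were among them. Over the 5 male libraries, 449 of the 1307 transcripts (34.4%) peaked in the mitotic region and 500 (38.3%) in spermatogenesis. Another 42 (3.21%) peaked post-meiotically and 316 (24.2%) in spermatids. Among all 8606 transcripts with 10 RPKM or more in either library, these shares were 37.4%, 10.8%, 12.8% and 8.61%. The mitotic share of the higher transcripts was thus not above that background, while the spermatogenesis and spermatid shares were. The remaining 30.4% of the 8606 peaked in the seminal vesicle. A higher call already requires spermatids to exceed the seminal vesicle, so no higher transcript can peak there. That favours peaks in the other regions, above all in spermatids, so these contrasts are a description only. HUWE1, a large ubiquitin ligase annotated on 12 gene models, had 49 of its 52 transcripts above 0 in both called higher, from 11 genes. Over all 54 of its transcripts the median was 46.3 RPKM in spermatids and 4.95 RPKM in the seminal vesicle, and 41.05 RPKM post-meiotically. The ubiquitin list, HUWE1 included, had 76 of 781 transcripts higher (9.73%) and 0 lower, with a median difference of 0.47. Of those 76, 49 were the HUWE1 transcripts. The list summed to 23291 RPKM in spermatids and 29199 RPKM in the seminal vesicle. Phosphoenolpyruvate carboxykinase, which in Ascaris fixes carbon dioxide on the way to malate, had 190.2 RPKM in spermatids and 3.3 RPKM in the seminal vesicle (AgB18_g052_t14, difference 5.47). Of 55 such transcripts of 9 genes above 0 in both, 19 from 3 genes were higher and 0 lower. The summed RPKM of the whole family nevertheless was 4719 in spermatids and 5962 in the seminal vesicle. The Argonaute CSR-1, which in Caenorhabditis elegans binds small RNAs against germline genes, had 20.7 RPKM in spermatids and 2.5 RPKM in the seminal vesicle (AgR015_g142_t01). On the list of small RNA and germ granule genes 6 of 130 transcripts were higher (4.62%, near the 2.93% of all), with a median difference of 1.13. Histones had 5 of 52 higher (9.62%, against 2.93%), among them H3 with 26.9 RPKM in spermatids and 1.2 RPKM in the seminal vesicle (AgR003_g376_t01).

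Kinases and phosphatases, which are numerous among sperm genes of Caenorhabditis elegans, were called higher at about the 2.93% of all transcripts above 0 in both, or below it. Of the 1919 protein kinase transcripts 26 from 12 genes were higher (1.35%), and of the 837 phosphatase transcripts 26 from 10 genes (3.11%); 0 of either were lower. After rescaling by median ratios the kinases had 43 higher and 11 lower, and the phosphatases 40 higher and 2 lower. Over all transcripts the rescaled counts were 1634 higher and 414 lower. Rescaling raised the values in both libraries against the fixed 10 RPKM minimum, so the added calls are not particular to these lists. Differences were largest for a mitogen-activated protein kinase kinase kinase kinase 3 gene, with 118 RPKM in spermatids and 4.6 RPKM in the seminal vesicle (AgR008_g330_t05), and for a regulatory B subunit of phosphatase 2A, with 46.2 RPKM in spermatids and 0.5 RPKM in the seminal vesicle (AgR019X_g064_t01). Tau-tubulin kinase 1, AgB01_g228_t03, had 29.4 RPKM in spermatids and 3.1 RPKM in the seminal vesicle.

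Muscle and intestine markers, but not neuron markers, had a larger share of higher calls than all transcripts. Of the muscle list, 45 of 349 transcripts from 15 genes were higher (12.9%) and 0 lower, with a median difference of 0.98 and sums of 3194 RPKM in spermatids and 1579 RPKM in the seminal vesicle. Titin, the giant elastic muscle protein, gave 20 of these transcripts from 6 genes. Without titin, 25 of 280 transcripts of the muscle list were higher (8.93%). The titin transcript AgB17_g106_t21 had 68.5 RPKM in spermatids and 1.4 RPKM in the seminal vesicle, but 403 RPKM in the mitotic region. Its gene lies in eliminated DNA, which somatic cells lack, so it is no marker of muscle cells here. All 10 libraries held this list, with sums of 7607 RPKM in the mitotic region and 11175 RPKM in spermatogenesis. Of the intestine and yolk list, 27 of 72 transcripts from 3 genes were higher (37.5%), all of them intestinal maltase or sucrase, sugar-splitting enzymes. Among them, AgR005_g373_t02 had 22.3 RPKM in spermatids and 0.7 RPKM in the seminal vesicle. The list summed to 693 RPKM in spermatids and 139 RPKM in the seminal vesicle. Its sums were 1395 RPKM in the mitotic region, 2023 RPKM in spermatogenesis, 244 RPKM post-meiotically and 530 to 1708 RPKM in the female regions. Transcripts of elt-2, the intestinal GATA factor of Caenorhabditis elegans, summed to 5.2 RPKM in spermatids and were all 23 listed at 0 in the seminal vesicle. Gut esterase summed to 67.3 RPKM in spermatids and 25.8 RPKM in the seminal vesicle, with 21 and 7 of 41 transcripts at 1 RPKM or more. The 9 vitellogenin transcripts, which code for yolk made by female worms, summed to 2.8 RPKM in spermatids and 0.6 RPKM in the seminal vesicle. Neuron markers had 1 of 422 higher and 4 lower, with sums of 1799 RPKM in spermatids and 2993 RPKM in the seminal vesicle. The part of such cells in the calls was not tested.

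**Figure D3:**
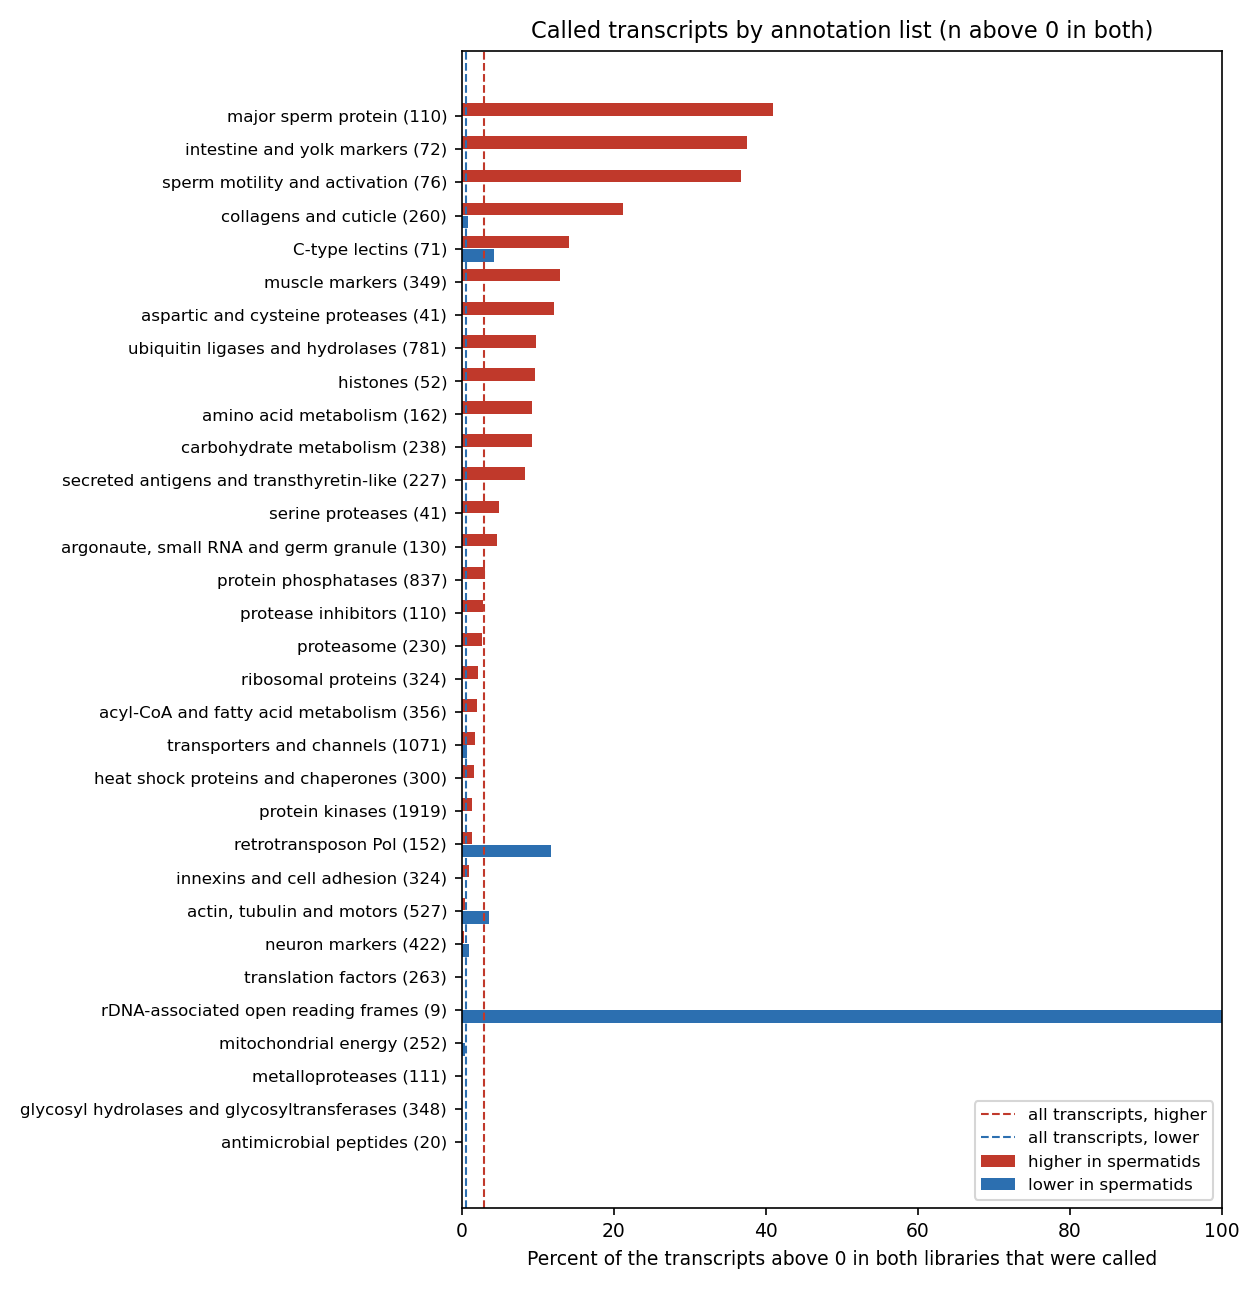
Percent of the transcripts of each of 32 annotation lists that were called higher or lower in spermatids, out of those above 0 in both libraries (number in brackets); dashed lines mark the share over all transcripts. Major sperm protein reaches 40.9% higher against a background of 2.93%, and the 9 rDNA-associated transcripts reach 100% lower against 0.491%; lists share genes and isoforms share reads.

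In the lower direction, a single ribosomal DNA locus stood out by level. On AgR002:4590518-4619042, 4 overlapping gene models with 21 transcripts on both strands carry the names TAR1, RRT15 and ART2, open reading frames known from yeast where they lie within ribosomal RNA genes. All 19 transcripts above 0 in both libraries were lower, with differences of -6.41 to -2.77. RRT15, AgR002_g269_t05, had 3855 RPKM in spermatids and 48336 RPKM in the seminal vesicle, where it was the highest of all transcripts, against 15896 RPKM post-meiotically and 1301 RPKM in spermatogenesis. TAR1, AgR002_g272_t01, had 425 RPKM in spermatids and 36151 RPKM in the seminal vesicle (difference -6.41), the largest difference below 0 of any transcript. These RPKM rest on reads that can come from ribosomal RNA left after depletion, and how much was left in either library was not tested.

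R2 retrotransposon Pol transcripts were lower as well; R2 elements insert into ribosomal RNA genes in many animals. Of their 31 transcripts above 0 in both, 18 from 14 genes were lower (58.1%, against 0.491% of all) and 0 higher, with a median difference of -2.11. AgR022_g007_t01 had 68.7 RPKM in spermatids and 361.5 RPKM in the seminal vesicle, and AgR011_g308_t01 had 38.1 RPKM in spermatids and 207 RPKM in the seminal vesicle. Their values were higher still in the post-meiotic region, at 1019 RPKM and 681 RPKM. LINE-1 reverse transcriptases, another class of retrotransposon, had 0 of 36 transcripts called in either direction and a median difference of 0.24. All 78 of their transcripts summed to only 59.5 RPKM in spermatids and 20.5 RPKM in the seminal vesicle. Few could thus reach the 10 RPKM minimum, and no contrast with R2 is drawn from the absence of calls. Copies of a repeat can share reads, so single members are uncertain; how alike these copies are was not tested.

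**Figure D4:**
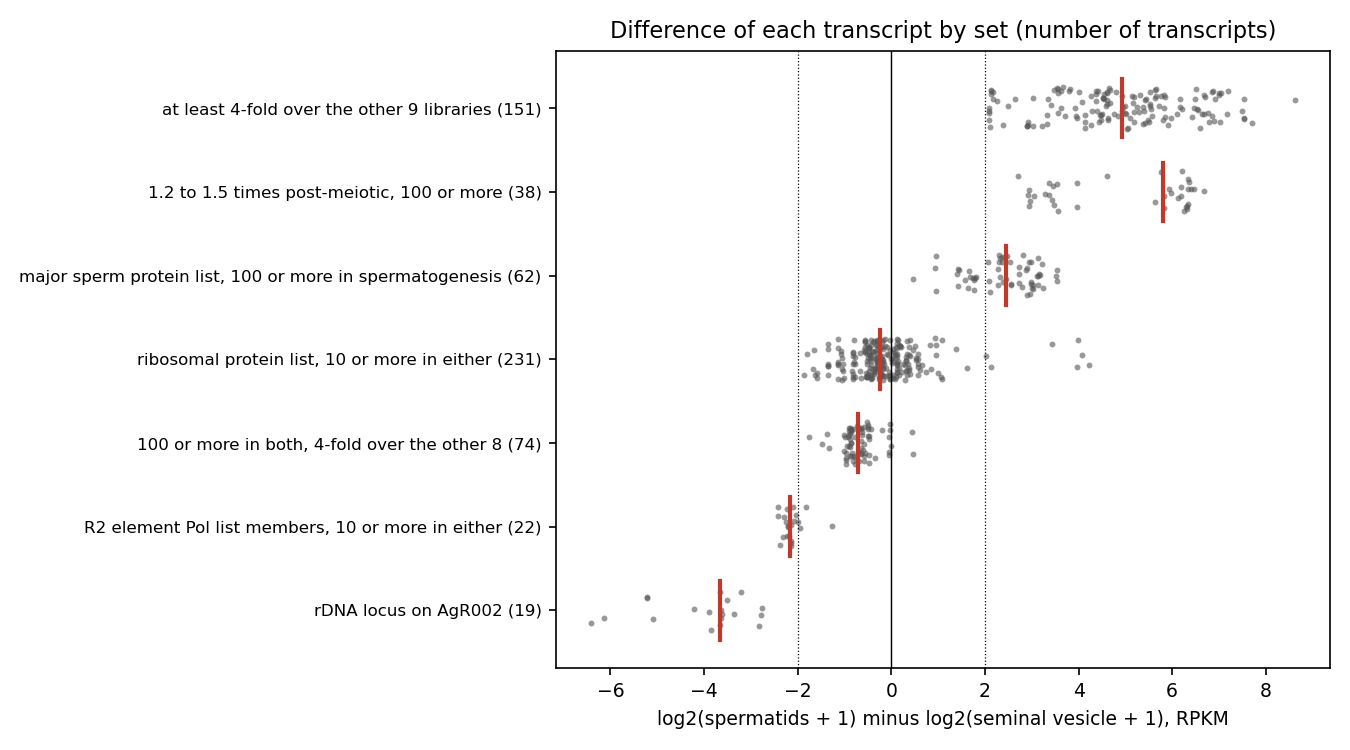
Difference of each transcript, log2(spermatids + 1) minus log2(seminal vesicle + 1), for 7 sets; a point is a transcript, the red bar is the median and dotted lines mark 4-fold. Medians are 4.94 for transcripts at least 4-fold over the other 9 libraries, 5.80 for those at 1.2 to 1.5 times their post-meiotic value and -3.66 for the rDNA locus; the first, the post-meiotic and the shared abundant sets were chosen by these values.

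Outside these repeats, 182 transcripts from 78 genes were lower, with medians of 10.7 RPKM in spermatids and 56.95 RPKM in the seminal vesicle against 10.05 RPKM in the post-meiotic region and 1.4 RPKM in spermatogenesis. For 137 of these 182 the seminal vesicle held the highest value of all 10 libraries, against 18.7% of the 8606 transcripts with 10 RPKM or more in either library. A lower call already requires the seminal vesicle to exceed spermatids, which favours such a peak, so this count is a description only. Fibrillins, extracellular matrix proteins, had 16 of 25 transcripts lower (64%), from 4 genes, and 1 higher, with a median difference of -2.72. Fibrillin-3 AgB10_g021_t02 had 18.4 RPKM in spermatids and 228 RPKM in the seminal vesicle (difference -3.56), and its neighbour AgB10_g022_t06, fibrillin-1, had 22.6 RPKM in spermatids and 225.5 RPKM in the seminal vesicle. Another fibrillin, AgR091_g001_t01, had 7.5 RPKM in spermatids and 150.1 RPKM in the seminal vesicle (difference -4.15).

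Of all 219 lower transcripts, 60 from 27 genes were annotated only as hypothetical protein. ALT-2, a secreted protein abundant in filarial larvae, had 27.4 RPKM in spermatids and 180.2 RPKM in the seminal vesicle for AgR007_g112_t01, and 3 of its 4 measured transcripts, from 3 genes, were lower. The Ancylostoma secreted protein homologue AgB07_g229_t01 had 280 RPKM in spermatids and 1465 RPKM in the seminal vesicle. A C-type lectin of family 4, AgR005_g379_t02, had 3.6 RPKM in spermatids and 69.7 RPKM in the seminal vesicle (difference -3.94), and clec-51, AgR005_g290_t01, had 44.6 RPKM in spermatids and 223 RPKM in the seminal vesicle. MEC-6, which in Caenorhabditis elegans helps mechanosensory channels to form, had 2.3 RPKM in spermatids and 82.2 RPKM in the seminal vesicle (AgR021X_g128_t03, difference -4.66). Rasp, the palmitoyltransferase of Hedgehog ligands in Drosophila, had 6.1 RPKM in spermatids and 63.8 RPKM in the seminal vesicle (AgR014X_g073_t04), with 5 of 6 transcripts lower. The GABA transporter homologue AgR031_g057_t01 had 14.1 RPKM in spermatids and 74.0 RPKM in the seminal vesicle, and the neuropeptide gene flp-22, AgR029_g012_t01, had 3.7 RPKM in spermatids and 22.3 RPKM in the seminal vesicle.

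Of the actin, tubulin and motor list, 19 of 527 transcripts from 2 genes were lower (3.61%, against 0.491% of all) and 2 were higher. An alpha tubulin gene, AgR025_g102_t07, had 10.9 RPKM in spermatids and 51.2 RPKM in the seminal vesicle (difference -2.13), but its highest male value, 169.4 RPKM, was in the mitotic region; its 15 isoforms were the only alpha tubulin transcripts called out of 42 (35.7%). Actin AgR001_g208_t05 had 417 RPKM in spermatids and 1702 RPKM in the seminal vesicle (difference -2.03), and lost its call when values were summed per gene. Of 164 actin transcripts 4 from 1 gene were lower (2.44%) and 1 was higher, with a median difference of 0.77. A beta-1 tubulin on an eliminated scaffold, AgE31_g003_t01, went the other way, with 29.4 RPKM in spermatids and 2.1 RPKM in the seminal vesicle.

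Several of the most abundant transcripts did not pass the threshold. With 100 RPKM or more in both libraries there were 704 transcripts from 223 genes, and the median ratio of spermatids to seminal vesicle was 0.675. Of these 23 were called higher and 34 lower. A subset of 74 from 28 genes, picked for values at least 4-fold over each of the other 8 libraries, held 0 called in either direction. A hypothetical protein, AgB18_g108_t01, had 15744 RPKM in spermatids and 29045 RPKM in the seminal vesicle. Another, AgB20_g027_t01, had 11172 RPKM in spermatids and 15167 RPKM in the seminal vesicle. Collagen 12 and collagen 99, on opposite strands of 1 locus, had 7955 RPKM in spermatids and 14536 RPKM in the seminal vesicle (AgB01_g561_t01), and 6064 RPKM in spermatids and 11101 RPKM in the seminal vesicle (AgB01_g560_t01). A lectin of this set, AgR011_g190_t03, had 3880 RPKM in spermatids and 6059 RPKM in the seminal vesicle.

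In the post-meiotic region the 74 transcripts kept a nearly fixed proportion to the seminal vesicle, at 6.59% to 9.48% of its value (median 7.09%). The proportion varied more in spermatids, at 29.6% to 138% (median 60.6%), and in the female early pachytene region, at 0.305% to 1.39% (median 0.394%). Whether RNA of the seminal vesicle reached the other libraries was not tested. The C-type lectin 160 gene AgB03_g439_t01, outside this set, had 17879 RPKM in spermatids and 16642 RPKM in the seminal vesicle, and was as abundant in the female oocyte at 19562 RPKM. C-type lectins thus had members high in both, 10 of 71 transcripts higher, 3 lower, and a median difference of 0.13 that became -0.03 after rescaling the libraries by median ratios.

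Few transcripts of housekeeping and defence genes were called at this threshold, though the defence lists leaned towards the seminal vesicle. Ribosomal proteins had 7 of 324 transcripts higher (2.16%) and 0 lower, with a median difference of -0.01. Of these 324, 231 had 10 RPKM or more in either library, and among all transcripts reaching that minimum 15.2% were higher. Of the 4 genes called, 3 lie in eliminated DNA, such as L13 (AgB14_g004_t01), with 25.1 RPKM in spermatids and 0.4 RPKM in the seminal vesicle. Genes of mitochondrial energy had 0 higher and 1 lower of 252 (median -0.17), and translation factors 0 called of 263 (median 0.20). Antimicrobial peptides, secreted by nematode epithelia, had 0 called of 20, with a median difference of -0.99 and medians of 51.9 RPKM in spermatids and 128.3 RPKM in the seminal vesicle. Transthyretin-like proteins had 0 called of 95 and a median of -0.49. On rescaling, 5 mitochondrial, 3 antimicrobial and 2 ribosomal transcripts were lower, against 414 of all transcripts.

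Genes that Ascaris eliminates from its somatic cells, and which therefore remain only in the germline genome, were called higher more often. Of 2469 eliminated transcripts above 0 in both, 247 from 88 genes were higher (10%) and 8 lower, against 1060 of 42106 retained transcripts (2.52%). Among the 295 eliminated transcripts with 10 RPKM or more in either library 83.7% were higher, against 12.8% of the retained ones. Every higher call passes that minimum through its spermatid value. Median RPKM was 1.8 in spermatids and 0.1 in the seminal vesicle for eliminated transcripts, and 1.4 and 0.5 for retained ones. The minimum thus partly fixes this contrast, and nothing is drawn from it. Transcripts flagged with a cap start and no spliced leader, the short exon joined to the front of many nematode mRNAs, were higher in 10.5% of 3375 cases, and those flagged with a spliced leader only in 1.82% of 19191. On X scaffolds 1.94% were higher, against 3.15% on the others. Neighbouring genes were called together in 18 runs of 3 or more on the higher side and 2 on the lower; besides the rDNA locus the lower one held propionyl-CoA carboxylase beta, at most 402 RPKM in spermatids and 1739 RPKM in the seminal vesicle.

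Transcripts listed at 0 in the seminal vesicle could not be given a fold. Of the 15760, 389 from 355 genes (0.629% of all transcripts) had 10 RPKM or more in spermatids; 0 transcripts were at 0 in spermatids with 10 RPKM or more in the seminal vesicle, where the highest such value was 4.1 RPKM. In the other 8 libraries 47 to 208 transcripts were at 0 with 10 RPKM or more in spermatids. Only 8 of the 389 had no other transcript in their gene, and 337 had another transcript above 0 in the seminal vesicle.

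Many of these zeros sat beside a well-measured isoform. For 229 of the 389, some isoform of the gene stayed within 1.1-fold in each of the other 9 libraries; of those isoforms 213 were above 0 in the seminal vesicle, with a median of 17.3 RPKM over the 229, and 29 were called higher. The ratio of spermatids to seminal vesicle for the 213 had a median of 1.01. A spindle- and centromere-associated protein showed this in its plainest form: AgR011_g069_t05 and AgR011_g069_t04 had equal values in all 9 other libraries, with 216 RPKM in spermatids, yet 0 and 202 RPKM in the seminal vesicle. HSP70 transcript AgR033_g090_t14 had 2154 RPKM in spermatids and was listed at 0 in the seminal vesicle, while its isoform AgR033_g090_t09 had 2153 RPKM in spermatids and 3196 RPKM in the seminal vesicle. Collagen 99 transcript AgB01_g561_t03 had 6549 RPKM in spermatids and 0 in the seminal vesicle, against 6640.1 RPKM in spermatids and 12070 RPKM in the seminal vesicle for AgB01_g561_t05. Polyubiquitin AgR016_g162_t04 had 1294 RPKM in spermatids and 0 in the seminal vesicle, against 1282 RPKM in spermatids and 2616 RPKM in the seminal vesicle for AgR016_g162_t05. In a phosphoenolpyruvate carboxykinase gene the partner was low instead: AgB18_g052_t11 had 190.1 RPKM in spermatids and 0 in the seminal vesicle, and its equal isoform AgB18_g052_t12 had 190.1 RPKM in spermatids and 3.3 RPKM in the seminal vesicle.

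Not all zeros had such a partner. The highest, ribosomal protein S6 kinase AgR035X_g089_t08, had 15940 RPKM in spermatids and 0 in the seminal vesicle, against 12566 RPKM post-meiotically; its isoform AgR035X_g089_t07 had 202 RPKM in spermatids and 41.2 RPKM in the seminal vesicle. An exact 0 can be a failed estimate, so these transcripts are listed at 0 and not taken as absent.

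**Figure D5:**
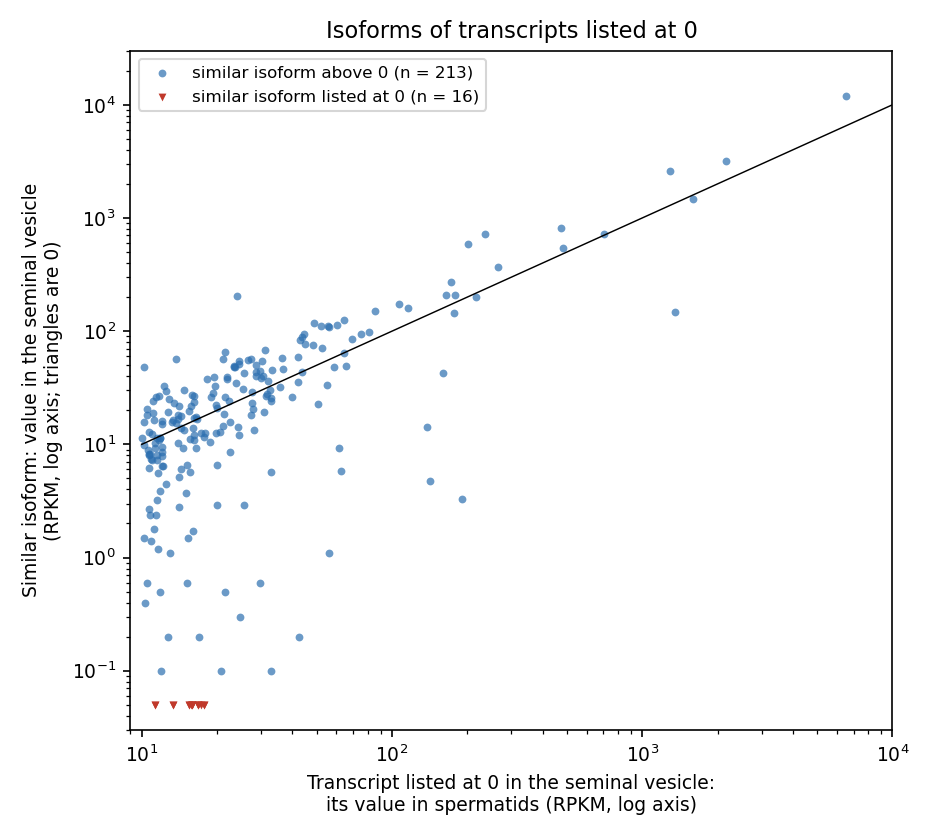
For 229 transcripts listed at 0 in the seminal vesicle, the value in spermatids (horizontal, RPKM, log axis) is set against the seminal vesicle value of the isoform that resembles it in the other 9 libraries (vertical, RPKM, log axis); the line marks equal values. Of these isoforms 213 are above 0 and 16 are listed at 0, drawn as triangles at the bottom.

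The counts depend on how transcripts are taken. With values summed per gene 1143 genes were higher and 99 lower, and over genes with 1 transcript in the table, an alternative added after the values were seen, 127 were higher and 32 lower. At a 2-fold threshold 1938 transcripts were higher and 1620 lower.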

How the data were processed

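The authors deposited 1 table with an expression value per transcript in 5 male and 5 female germline libraries. Its header names no unit; values were taken as RPKM because low values step with the inverse of transcript length, with no statement of reads against fragments. Per the submitters' processing notes TopHat2 and Cufflinks were used, without versions, and the sources used here name neither genome build nor strand setting. Coordinates are those of the deposited table. The libraries made from 5′ ends are not analysed here.

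From the deposited RPKM, log2(RPKM + 1) differences were computed in Python 3.11.15 with pandas 2.3.3 and numpy 2.4.6, and the calling step was tested on simulated data. Nothing was filtered apart from the 10 RPKM minimum and the transcripts at 0. With 1 library per group a rule of size replaced a test. Genes were named by a rule: the 15 largest differences each way, the 6 highest in each library, up to 4 called members of each list and the 8 highest among those at 0, all with a descriptive annotation and 1 transcript per gene. Not every transcript that this rule names is reported here. Others, such as AgB18_g108_t01, AgE02_g017_t02 and the isoforms set beside zeros, were chosen after their values were seen. Members, rules and the 32 lists, matched on words of the annotation and corrected after matches were read, were chosen with earlier results of these data known. The other settings tried were the pseudocount, the minimum, scaling, removal of the 100 highest transcripts with rescaling of the rest, the unit of counting, the threshold and the handling of zeros.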

Additional observations from a re-analysis of the deposited data

How the results depend on the processing

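Against 1307 transcripts higher and 219 lower, the higher count was 2569 with no minimum and 346 with a minimum of 50 RPKM in place of 10 (136 lower). It was 469 with 1 transcript per gene (87 lower) and 127 over genes with 1 transcript in the table (32 lower). Without the 100 highest transcripts it was 2090, with the remaining values rescaled to a common sum. That rescaling raised the remaining values in both libraries, so more of them passed the 10 RPKM minimum. The lower count was 414 after rescaling by median ratios, where the factors of both libraries differ by 0.25 on the log2 scale, 99 with values summed per gene and 1620 at a 2-fold threshold. The share of higher among called transcripts was 85.6% and ranged over these settings from 54.5% at the 2-fold threshold to 92.0% with values summed per gene. Transcripts at 0 in the seminal vesicle numbered 811 at 5 RPKM and 177 at 20 RPKM in spermatids, and Pearson r was 0.66 with a pseudocount of 0.1. Of 140 named transcripts 3 lost the call on rescaling (AgB01_g586_t03, AgE11_g006_t02 and AgR020_g070_t01), 1 lost it per gene, and 0 reversed. Beyond the raised values named above, the cause of these shifts was not tested. No paired analysis was possible because each region is 1 library. With unknown depth, low values in the seminal vesicle have no stated error.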
